A study of Mus musculus with 9 samples.

Results

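Neurotransmitter receptors carry the signal across a synapse. Ionotropic receptors are ion channels built from several subunits, each from its own gene, and the subunits set how fast a channel opens, which ions pass and where it sits on the cell. Glutamate opens AMPA, kainate and NMDA channels and excites neurons, GABA and glycine open chloride channels that mostly inhibit them, and acetylcholine opens nicotinic channels both in the brain and at the junction of nerve and skeletal muscle. Metabotropic glutamate receptors signal through G proteins instead. The genes of these receptors were described here in tumour tissue, where most of the channels are known from neurons, some also from glia, and the muscle-type nicotinic subunits from muscle.

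The members were chosen by symbol alone, as every row whose gene symbol starts with Gria, Grid, Grik, Grin, Grm, Gabr, Glra, Glrb or Chrn in the form used for subunits. This gave 66 of 18639 genes, of which 64 code for a receptor subunit. The other 2 are a gene for a receptor-binding protein and Grin1os, a transcript antisense to Grin1. The GABA-A family had 17 members, the nicotinic family 16, the metabotropic glutamate family 8, the NMDA family 7, the kainate and glycine families 5 each, the AMPA family 4 and the delta family 2. The GABA-B receptor genes do not match the rule and were placed in a list of partners.

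Bulk RNA-seq was carried out on tissue of tumours of CT2A, a mouse glioma cell line, taken 5 days after the tumour was resected, with 3 libraries in each of 3 groups. One group was treated with ThTC, CT2A cells that secrete interferon-beta and GM-CSF, one with GFP-TC, the control cells, and one with sECM only, an abbreviation that the labels do not spell out. Mouse strain and age and the sequences that drive the secreted factors are not given in the labels, and all groups share the CT2A tumour and its resection. Whether each library stands for an animal of its own is not in the labels, and p-values here cover only the spread from library to library. Values are TPM, a transcript abundance per length that sums to the same total in every library. It carries no read depth, and the labels state 4.47 Gb for each sample.

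The libraries held very different amounts of neuronal RNA within a group. The summed TPM of 10 neuron markers, none of them a member, was 191 to 1537 in ThTC, 155 to 1293 in GFP-TC and 290.4 to 443 in sECM only libraries, a 9.94-fold range. ThTC 3 and GFP-TC 3 were the libraries high in neuron markers and GFP-TC 1 the lowest. Snap25, a synaptic gene used as one of the markers, was at 414 TPM in ThTC 3, 314 TPM in GFP-TC 3 and 18.5 TPM in GFP-TC 1. Oligodendrocyte markers ran along with them, at 149.6 to 2281 TPM in ThTC, 169 to 1875 TPM in GFP-TC and 304 to 671 TPM in sECM only. In bulk tissue, fewer cells of a type and less RNA per cell cannot be told apart.

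A pair of members gave much of the receptor RNA in every library. Summed over the members, TPM was 224 to 644 in ThTC, 225 to 601 in GFP-TC and 265 to 330.3 in sECM only, and Grik5 and Chrnb1 together made up 24.2% of it in ThTC 3 and 64.3% in GFP-TC 1, the extremes. Per length, the highest mean over the 9 libraries was that of Grik5 at 111 TPM, followed by Chrnb1 at 45.95, Grin1 at 21.8, Gria1 at 14.0, Chrna1 at 13.5 and Glrb at 12.3 TPM. The order among Gria1, Chrna1 and Glrb was within the spread between libraries. 38 members reached 1 TPM in at least 3 libraries and entered the tests across genes, 28 did not, and none was at 0 in every library. Of the tested members, 16 were at 1 TPM or more in all libraries and 3, Grm8 and Chrna7 among them, in exactly 3.

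**Figure D1:**
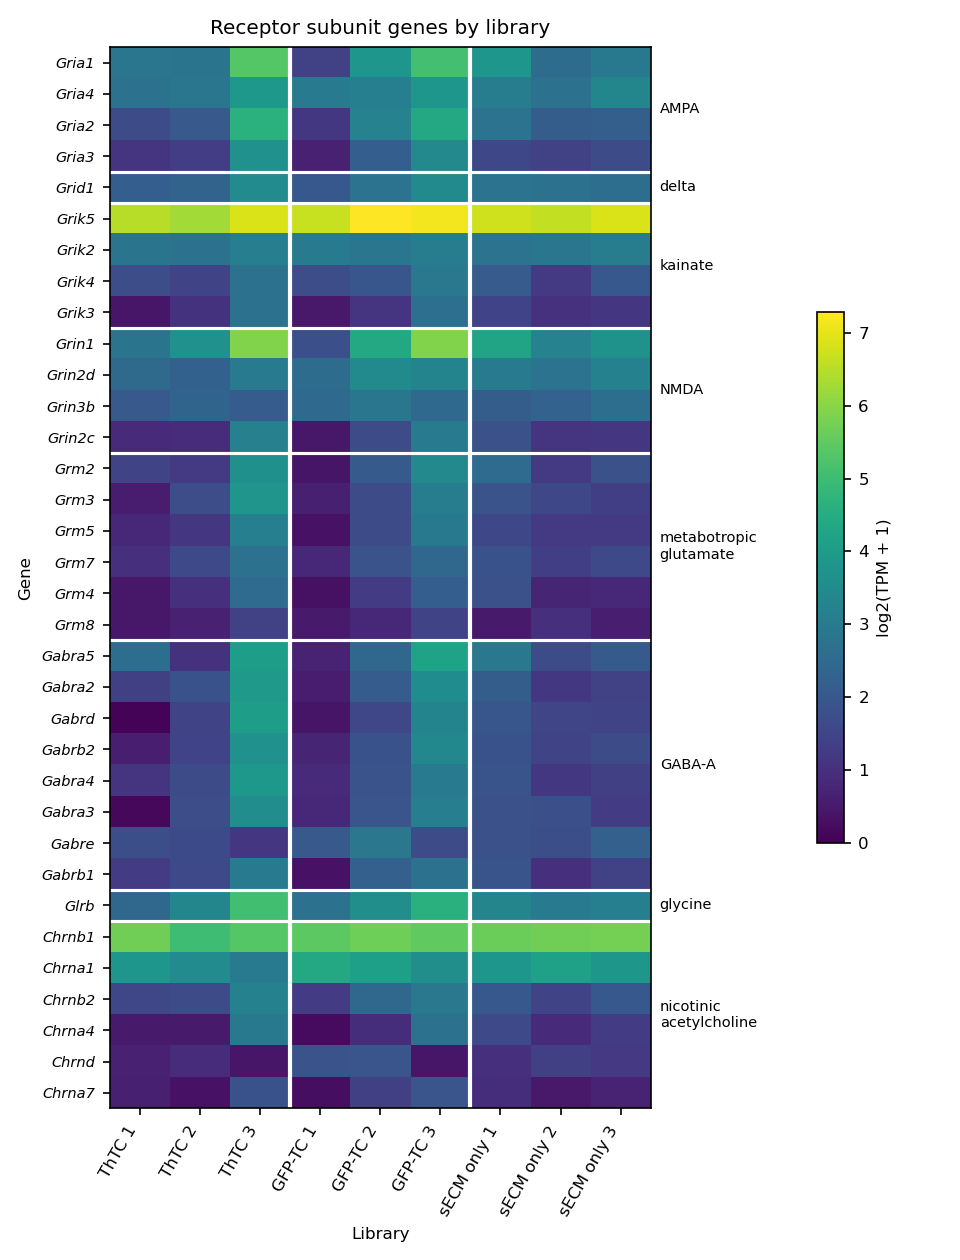
Level of 34 of the 38 tested members, in rows, in each of the 9 libraries, in columns, as log2(TPM + 1) by colour; white lines part the families and the groups. Most rows are brightest in ThTC 3 and GFP-TC 3, while Grik5, Chrnb1, Grik2 and Grin3b keep nearly 1 colour across the row and Chrna1 is darkest in ThTC 3.

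The AMPA receptors carry most fast excitation in the brain. Gria1, the GluA1 subunit (chromosome 11, 57011571 to 57330244, GRCm38.p6), was at 6.31, 5.93 and 40.3 TPM in the ThTC libraries, 1.63, 13.2 and 33.7 TPM in the GFP-TC libraries and 13.1, 4.95 and 6.75 TPM in the sECM only libraries. Gria2, the GluA2 subunit, whose edited form keeps calcium out of the channel (chromosome 3, 80681450 to 80804227), was at 2.22, 3.10 and 23.9 TPM in ThTC, 1.28, 8.29 and 20.2 TPM in GFP-TC and 5.83, 3.42 and 3.62 TPM in sECM only. Both genes were highest in ThTC 3 and GFP-TC 3 and lowest in GFP-TC 1, and the groups overlapped. Gria4, the GluA4 subunit (chromosome 9, 4417893 to 4796234), varied much less, at 5.68, 6.25 and 13.7 TPM in ThTC, 7.22, 7.81 and 13.2 TPM in GFP-TC and 7.27, 5.72 and 9.20 TPM in sECM only. As a share of the summed AMPA TPM, Gria4 was 15.3% in ThTC 3, 17.1% in GFP-TC 3 and 67.3% in GFP-TC 1. The AMPA gene that led the family changed between Gria1 and Gria4 within each group. Besides GFP-TC 1, Gria4 led in ThTC 2 (37.2% against 35.3% for Gria1) and sECM only 2 (36.2% against 31.3%). It also led in sECM only 3 (42.2% against 31.0%), and Gria1 led in the remaining libraries. Gria3 was at 0.60 to 11.8 TPM.

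The NMDA channel needs the GluN1 subunit, which Grin1 encodes, together with GluN2 or GluN3 subunits. Grin1 (chromosome 2, 25291177 to 25319187) was at 6.02, 11.95 and 59.3 TPM in ThTC, 2.42, 19.9 and 58.4 TPM in GFP-TC and 18.2, 8.34 and 11.97 TPM in sECM only. ThTC 3 and GFP-TC 3 were again far above the others. Grin2d, the GluN2D subunit, known from the young brain and from interneurons (chromosome 7, 45831883 to 45871194), was at 4.71, 3.79 and 6.96 TPM in ThTC, 4.97, 10.25 and 8.81 TPM in GFP-TC and 6.85, 5.78 and 8.11 TPM in sECM only. Its share of the GluN2 TPM was 36.6% in ThTC 3, 44.2% in GFP-TC 3 and 66.5% to 91.2% in the other 7 libraries. Grin2a and Grin2b, the main GluN2 genes of the adult forebrain, did not pass the filter, and Grin2a reached 3.01 TPM in GFP-TC 3, its highest value. Grin3b, a GluN3 subunit (chromosome 10, 79970397 to 79977190), was at 3.13, 4.04 and 3.31 TPM in ThTC, 4.64, 6.32 and 4.61 TPM in GFP-TC and 3.42, 3.93 and 5.14 TPM in sECM only. Its exons overlap those of Tmem259 on the opposite strand, a gene at 151 to 201 TPM, and whether reads were counted by strand is not given in the sources used here, so the Grin3b values are uncertain.

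Grik5, the GluK5 kainate subunit, which works only in company with other kainate subunits (chromosome 7, 25009849 to 25075694), was at 89.7, 75.7 and 115 TPM in ThTC, 101, 154 and 140.0 TPM in GFP-TC and 108, 97.5 and 117 TPM in sECM only. It made up 84.96% to 93.2% of the kainate TPM in every library. Grik2, the GluK2 subunit and second in the family (chromosome 10, 49093680 to 49790161), was the steadiest of the tested members, at 6.02, 5.56 and 7.59 TPM in ThTC, 6.78, 6.26 and 7.29 TPM in GFP-TC and 5.81, 6.27 and 7.25 TPM in sECM only, a 1.37-fold range. Grid1, which codes for the GluD1 receptor of synapse adhesion (chromosome 14, 34820003 to 35583387), was at 3.05 to 10.4 TPM and highest in ThTC 3 and GFP-TC 3.

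Among the metabotropic glutamate receptors, Grm2, which lowers transmitter release at nerve endings, was at 1.80, 1.38 and 11.6 TPM in ThTC, 0.32, 3.20 and 9.73 TPM in GFP-TC and 4.81, 1.38 and 2.48 TPM in sECM only. Grm3, of the same subgroup and known from astrocytes too (chromosome 5, 9485236 to 9725352), was at 0.47, 2.29 and 12.95 TPM in ThTC, 0.56, 2.17 and 7.29 TPM in GFP-TC and 2.65, 1.99 and 1.53 TPM in sECM only. Each of the 2 had its highest values in ThTC 3 and GFP-TC 3. Grm6, known from the retina, stayed at or under 0.19 TPM and was the family's only member below the filter.

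GABA-A channels commonly join alpha, beta and gamma subunits. Gabrd, the delta subunit of channels outside the synapse (chromosome 4, 155384979 to 155398098), had the widest range of the tested members, at 0.06, 1.82 and 15.9 TPM in ThTC, 0.34, 1.93 and 8.76 TPM in GFP-TC and 2.89, 1.85 and 1.79 TPM in sECM only. It was highest in ThTC 3 and next in GFP-TC 3. Gabre, the epsilon subunit (chromosome X, 72256926 to 72274828), was at 2.38, 2.10 and 1.23 TPM in ThTC, 3.09, 6.38 and 2.26 TPM in GFP-TC and 2.5, 2.38 and 3.69 TPM in sECM only. It was lowest in replicate 3 of both ThTC and GFP-TC, the libraries in which Gabrd was highest.

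The alpha subunits were not in fixed proportion. Gabra5, the alpha-5 subunit best known from the hippocampus (chromosome 7, 57407669 to 57591016), made up 53.6% of the alpha TPM in ThTC 1 and 7.69% to 27.1% in the other 8 libraries. Gabra3, the alpha-3 subunit (chromosome X, 72432676 to 72656919), made up 1.13% in ThTC 1 and 9.56% to 21.3% in the others. In TPM, Gabra5 was at 5.22 in ThTC 1 and 1.09 in ThTC 2, whereas Gabra3 was at 0.11 in ThTC 1 and 2.30 in ThTC 2. Both were singled out after their values were seen, and 1 library carries the difference.

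**Figure D2:**
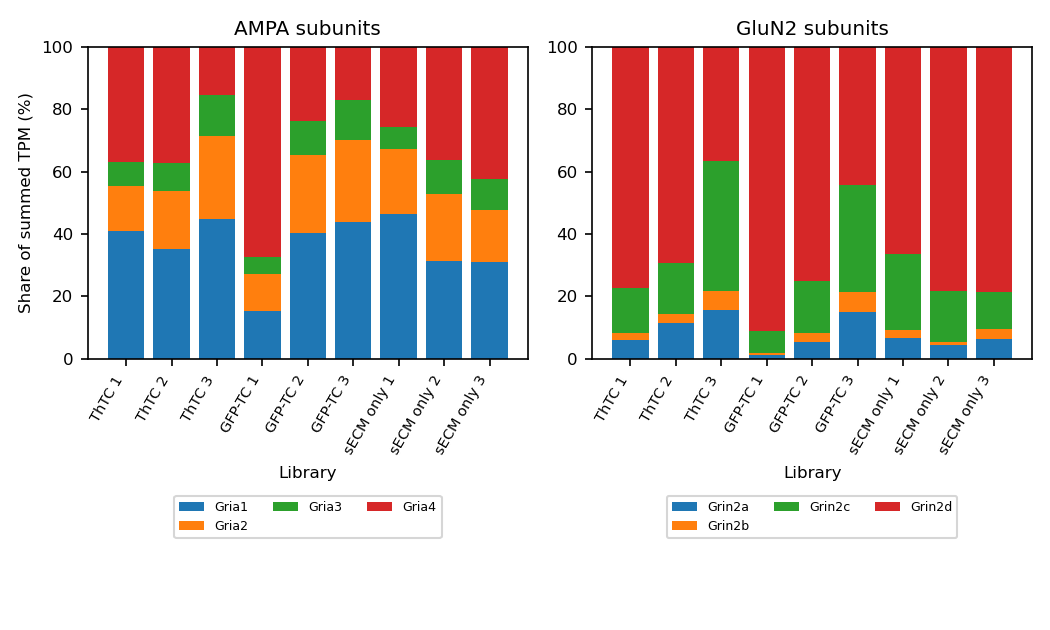
Share of each AMPA and GluN2 subunit gene in the summed TPM of its set, in percent, as stacked bars for each of the 9 libraries; the shares are of the genes in the files. Gria4 takes 67.3% of the AMPA bar in GFP-TC 1 and 15.3% in ThTC 3, and Grin2d takes 36.6% of the GluN2 bar in ThTC 3, its smallest share.

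Glrb, the beta subunit that ties glycine receptors to the scaffold under the synapse (chromosome 3, 80843598 to 80913660), was at 4.42, 9.10 and 32.8 TPM in ThTC, 5.55, 11.04 and 23.8 TPM in GFP-TC and 8.91, 7.09 and 7.90 TPM in sECM only. The glycine-binding alpha subunits did not pass the filter, and Glra2, the highest of them, reached 2.02 TPM in ThTC 3.

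The nicotinic family held genes of 2 kinds. Chrnb1, the beta-1 subunit of the muscle-type receptor (chromosome 11, 69784036 to 69795966), was at 50.6, 31.6 and 40.4 TPM in ThTC, 42.98, 50.2 and 44.65 TPM in GFP-TC and 49.3, 50.9 and 52.8 TPM in sECM only. Chrna1, the muscle-type alpha-1 subunit that binds acetylcholine (chromosome 2, 73563281 to 73580338), was at 13.3, 10.3 and 7.01 TPM in ThTC, 19.9, 16.2 and 11.0 TPM in GFP-TC and 13.2, 17.1 and 13.5 TPM in sECM only. Chrnd, the delta subunit of the same receptor (chromosome 1, 87190597 to 87200070), was at 0.59, 0.88 and 0.37 TPM in ThTC, 2.63, 2.76 and 0.36 TPM in GFP-TC and 1.01, 1.59 and 1.31 TPM in sECM only. Within ThTC and within GFP-TC, replicate 3, which was high for the brain subunits, was the lowest library for both Chrna1 and Chrnd. Chrng and Chrne, the other subunits of the fetal and adult muscle receptor, stayed at or under 0.24 TPM and 0.13 TPM. Of the skeletal muscle markers, Myh4, Myh1 and Ckm were each at 0 in some library, and the 7 markers summed to 1.73 to 6.44 TPM in ThTC, 4.48 to 5.22 TPM in GFP-TC and 4.62 to 5.43 TPM in sECM only. Chrna4 and Chrnb2, the subunits of the main high-affinity brain receptor, were at 0.16 to 6.65 TPM and 1.45 to 8.25 TPM. The exons of Chrnb2 overlap those of Adar on the opposite strand, at 65.5 to 112 TPM, which makes Chrnb2 uncertain in the way given for Grin3b.

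The upstream sequences of 3 members are shown because short motifs known from neuronal and muscle promoters can be read in them. Grm2 and Gria2 were highest in ThTC 3 and GFP-TC 3, while Chrna1 was lowest in ThTC 3. A link between a motif and these levels was not tested. Each sequence is the 250 bases before a RefSeq transcript start in GRCm38.p6, on the minus strand. They lie at chr9:106656110-106656359 for Grm2, chr3:80802836-80803085 for Gria2 and chr2:73580339-73580588 for Chrna1. The Gria2 window lies inside the span given above for the gene, before a transcript start that is not the outermost. Capitals mark TTCAGCACC and GGACAGC, the left and right parts of the RE1 element that the repressor REST binds, in Grm2 and Gria2, and CAGCTG, an E-box form that myogenic factors bind, in Chrna1.
Grm2: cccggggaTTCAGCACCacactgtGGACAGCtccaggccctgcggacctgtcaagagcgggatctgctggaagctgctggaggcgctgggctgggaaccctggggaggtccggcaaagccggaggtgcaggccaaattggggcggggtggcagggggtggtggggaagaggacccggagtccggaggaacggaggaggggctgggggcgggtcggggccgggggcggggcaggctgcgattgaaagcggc
Gria2: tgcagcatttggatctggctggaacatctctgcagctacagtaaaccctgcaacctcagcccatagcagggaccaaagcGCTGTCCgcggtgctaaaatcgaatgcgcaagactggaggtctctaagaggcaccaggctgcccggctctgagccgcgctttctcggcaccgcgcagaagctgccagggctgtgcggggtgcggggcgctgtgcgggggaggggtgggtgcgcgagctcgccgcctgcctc
Chrna1: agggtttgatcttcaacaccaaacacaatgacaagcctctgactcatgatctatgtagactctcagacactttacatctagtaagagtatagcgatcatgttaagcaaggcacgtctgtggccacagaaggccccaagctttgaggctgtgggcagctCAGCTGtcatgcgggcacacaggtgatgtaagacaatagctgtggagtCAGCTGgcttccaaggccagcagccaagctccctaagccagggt
In the Grm2 window TTCAGCACC lay 242 to 234 and GGACAGC 226 to 220 bases before the start. In the Gria2 window GGACAGC was read on the other strand, as GCTGTCC, 171 to 165 bases before the start. Only exact copies were searched, so the ggtgctaaa near GCTGTCC, a copy of TTCAGCACC on the other strand with a changed base, is not marked. The distance between the left and right parts was not used, and whether either window holds a whole RE1 element was not tested. Chrna1 held CAGCTG at 92 to 87 and at 44 to 39 bases before the start. The motifs were searched on both strands and do not overlap each other. Over all 32851 windows of the RefSeq table, 0.301% held TTCAGCACC, 5.28% GGACAGC, 0.0152% both, 13% CAGCTG and 1.26% at least 2 copies of CAGCTG. 46 members had a window, 55 windows in all, of which 1 held TTCAGCACC, 4 (7.27%) GGACAGC and 6 (10.9%) CAGCTG. A match of letters is a description of the window only, and whether any factor binds there was not measured.

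To describe which members varied with the neuronal RNA of a library, limma was fitted across 13819 genes with the group and a neuron score as terms. The score is the mean of the 10 markers on the log2(TPM + 1) scale, each centred on its mean, and a slope of 1 means that log2(TPM + 1) rises by 1 for each unit of score within groups. 30 of the 38 tested members had a positive slope at a Benjamini-Hochberg adjusted p under 0.05 and 1 had a negative slope, beside 25.4% positive and 4.18% negative among all genes tested. The median slope was 0.68 for these members and 0.04 for all genes. The filter favours genes that are high in some library, so the count was also made with no filter, which gave 40 positive and 1 negative slope among all 66 members, beside 22.2% positive and 2.90% negative over all genes.

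Without ThTC 3 and GFP-TC 3 together, 15 members had a positive slope and 0 a negative one, beside 9.02% and 0.188% of all genes. Under median-of-ratios scaling the split among all genes moved from 3516 positive and 577 negative to 2874 and 2251, and the members had 30 positive and 2 negative slopes, with Chrnd added.

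Steep slopes were those of Grin1 at 1.11 (SE 0.067, limma adjusted p = 1.2e-06), Gabrd at 1.03, Gria1 at 0.996 and Gria2 at 0.96. By family, a positive slope was called for 4 of 4 tested AMPA, 7 of 7 metabotropic glutamate, 10 of 11 GABA-A, 2 of 4 NMDA, 2 of 4 kainate and 3 of 6 nicotinic members, and for Grid1 and Glrb, the only tested members of the delta and glycine families. All 30 had their 2 highest values in ThTC 3 and GFP-TC 3, and 21 were lowest in GFP-TC 1 and 8 in ThTC 1. Their highest TPM exceeded the lowest 2.42-fold for Gria4 to 265-fold for Gabrd, with a median of 20.3-fold. The range was 1.37-fold to 7.67-fold for the other 8 tested members. The 30 were picked by their slope on the neuron score. That score was highest in ThTC 3 and GFP-TC 3 and lowest in GFP-TC 1 and ThTC 1. These libraries and the wider ranges of the 30 therefore follow largely from that choice. The range of Gabrd rests on its 0.06 TPM in ThTC 1, a value of uncertain depth. Of the 30, 25 were lower in ThTC 1 than in ThTC 2, which had the higher neuron marker sum, while Gria1, Gabra5, Grm2, Chrna7 and Grik4 were higher in ThTC 1.

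**Figure D3:**
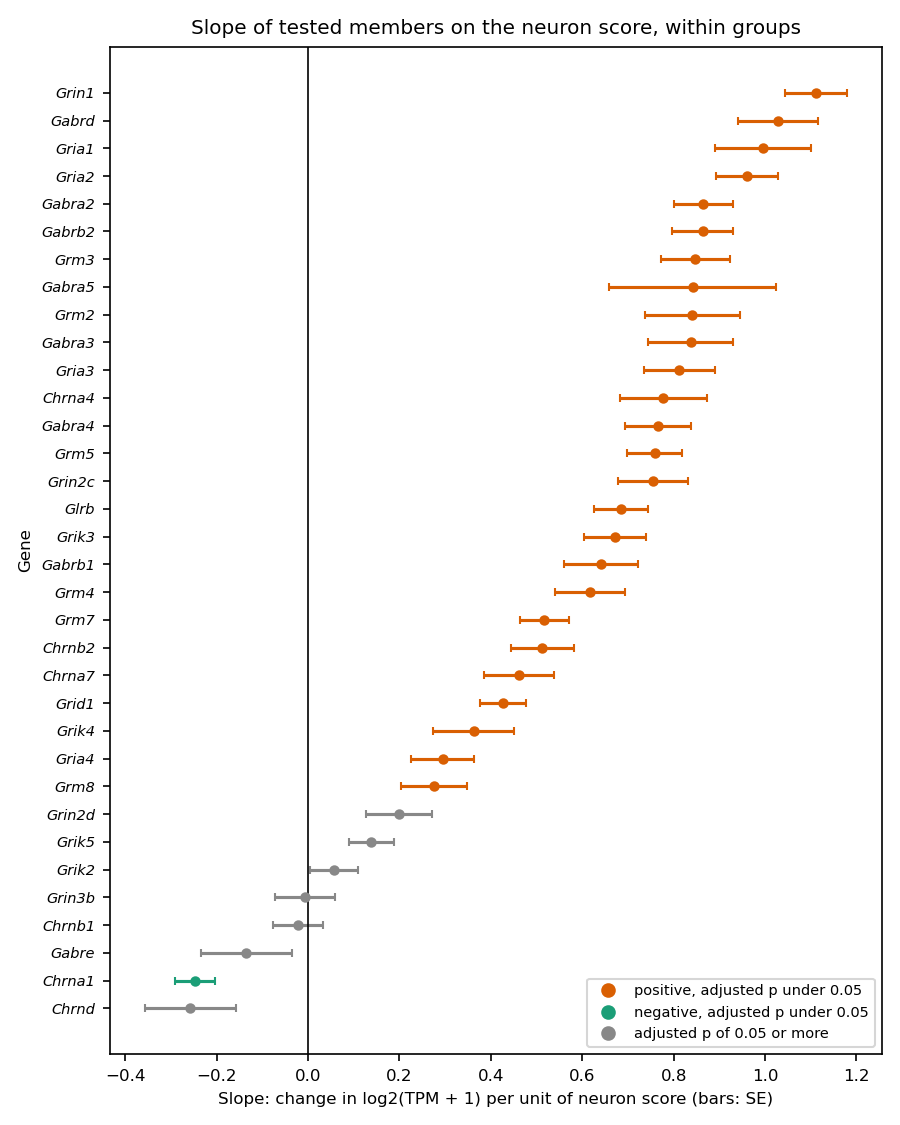
Slope of 34 of the 38 tested members on the neuron score, within groups, in log2(TPM + 1) per unit of score, with its standard error as a bar; colours give the limma call over all genes. Slopes run from 1.11 for Grin1 to -0.26 for Chrnd, and Chrna1 at -0.25 is the only called negative slope.

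Only Chrna1 had a negative slope past the threshold, at -0.25 (SE 0.044, limma adjusted p = 0.0017). The call did not hold in a fit with replicate number as a block (adjusted p = 0.096) or without ThTC 3 and GFP-TC 3 (-0.21, adjusted p = 0.29). Chrnd had a slope of -0.26 (SE 0.0996) that was not called (limma adjusted p = 0.079). It was called under median-of-ratios scaling (adjusted p = 0.045), without ThTC 1 (adjusted p = 0.035) and without GFP-TC 2 (adjusted p = 0.038), and its slope was -0.36 without ThTC 3 (adjusted p = 0.082) and -0.07 without GFP-TC 3 (adjusted p = 0.599). The proliferation markers fell in part with the score as well: 2 of 5, Ccnb1 and Cdk1, had a called negative slope of -0.12 and -0.14, and their part in the Chrna1 result was not tested. Of the 3 tested skeletal muscle markers, Acta1 had a positive slope of 0.41, and Tnnt3 and Mylpf were not called.

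The other members without a call had slopes closer to 0. They were 0.198 for Grin2d, 0.14 for Grik5, 0.057 for Grik2, -0.0061 for Grin3b, -0.022 for Chrnb1 and -0.14 for Gabre, with limma adjusted p = 0.056 for Grik5 and 0.065 for Grin2d. Grik5 passed the threshold without ThTC 1 (adjusted p = 0.037) and without GFP-TC 2 (adjusted p = 0.034), and Grin2d without GFP-TC 2 (adjusted p = 0.044), while the slope of Gabre ran from -0.29 without GFP-TC 1 to -0.04 without GFP-TC 3. Of the called positive slopes, that of Gria4 at 0.29 was lost with the block (adjusted p = 0.24), without ThTC 3 (adjusted p = 0.12) and without GFP-TC 3 (adjusted p = 0.057).

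**Figure D4:**
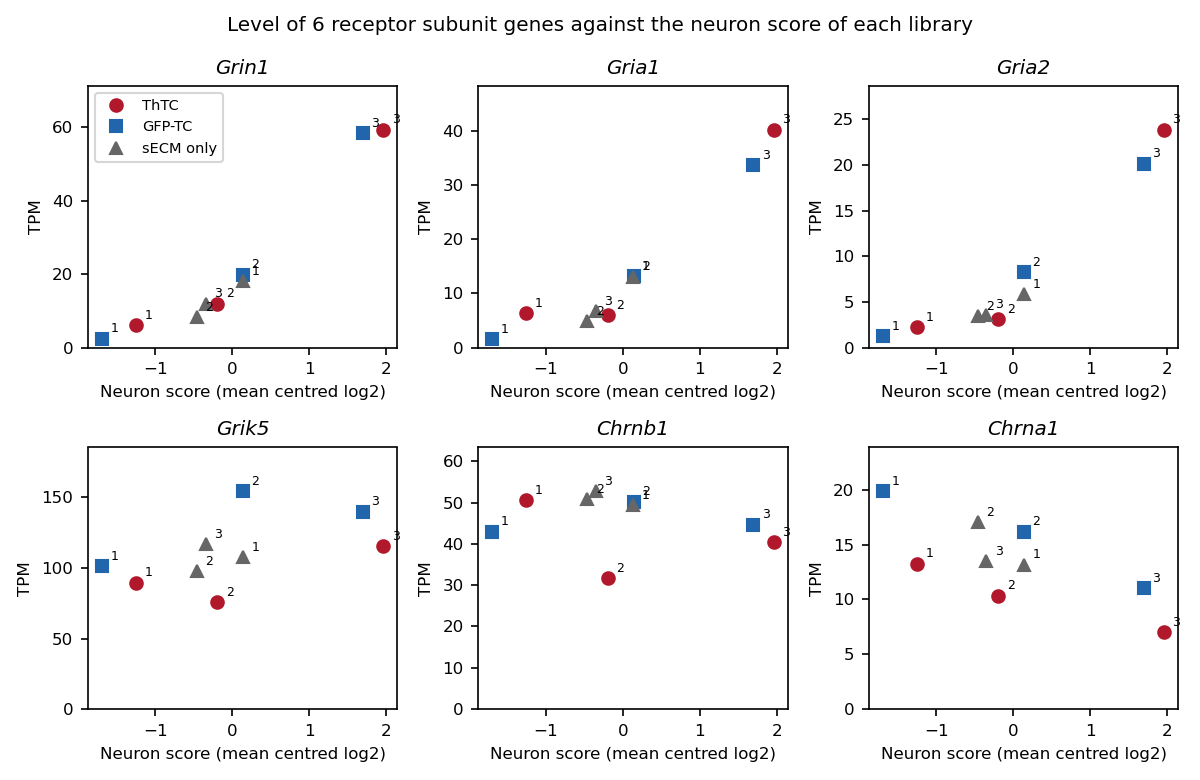
TPM of Grin1, Gria1, Gria2, Grik5, Chrnb1 and Chrna1 in each of the 9 libraries (vertical axis) against the neuron score of the library (horizontal axis); colours and symbols give the group and digits the replicate. The upper 3 genes reach 59.3, 40.3 and 23.9 TPM in ThTC 3, at the right, while Chrna1 has its lowest value there, 7.01 TPM.

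Brain cell types other than neurons varied along with the neurons, so the score is not a measure of neurons alone. All 7 oligodendrocyte markers, 6 of 7 astrocyte, 6 of 7 microglia and macrophage, 4 of 6 oligodendrocyte precursor and 3 of 5 endothelial markers had a called positive slope on it, and 0 of the tested T cell, fibroblast and red blood cell markers did. The T cell slopes were not called but were 0.23 to 0.61, with a median of 0.54, against 0.29 for the microglia and macrophage markers. With an oligodendrocyte score in place of the neuron score 30 members were called positive and 1 negative, beside 23% and 3.6% of all genes. With an astrocyte score these were 31 and 1, beside 25.2% and 4.02%, both alternatives chosen after the data had been seen. Which cells the receptor RNA came from was not tested.

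Partner genes of the receptors, taken from lists, ran the same way in most cases. Among all genes tested, 25.4% had a called positive slope. Of 29 genes for auxiliary subunits and scaffolds of glutamate receptors, 26 were tested and 21 had a positive slope, among them Shank1, a scaffold (1.11), Cacng3, an AMPA receptor auxiliary subunit (1.11), and Dlg4, the PSD-95 scaffold (0.49). Dlg1, Homer1, Homer3, Neto2 and Pick1 were not called. Of 16 inhibitory partners, 11 of 15 tested had a positive slope, with Slc12a5, the neuronal chloride exporter, at 0.99 and Gabbr2, a GABA-B receptor subunit, at 0.996, while Gphn, which codes for the scaffold gephyrin, was not called (0.075, limma adjusted p = 0.19). Of 13 nicotinic partners, 6 of 9 tested had a positive slope, with Lynx1, a toxin-like modulator of brain receptors, at 0.82. Rapsn, which clusters the muscle receptor, was not called (0.19, limma adjusted p = 0.094), and Musk, the kinase of the nerve-muscle junction, stayed at or under 0.15 TPM. Of 18 genes for making and clearing glutamate, GABA and glycine, 13 of 15 tested had a positive slope, led by Slc1a2, the astrocytic glutamate transporter (1.07). None of the 4 lists had a called negative slope, where 4.18% of all genes tested had one.

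The comparison of ThTC with GFP-TC sets cells that secrete interferon-beta and GM-CSF beside the control cells. Whether secretion is the only difference between these cells was not tested. limma called 0 members and 0% of all 13829 genes at an adjusted p under 0.05. At an unadjusted p under 0.05 there were 2 members, Grik5 and Grin3b, and 14.9% of all genes. Grik5 averaged 93.6 ± 20.1 TPM in ThTC and 132 ± 27.4 TPM in GFP-TC (SD, n = 3 each), a log2 fold change of -0.49 on the log2(TPM + 1) scale (SE 0.19, limma adjusted p = 0.32). Grin3b averaged 3.49 ± 0.48 TPM in ThTC and 5.19 ± 0.98 TPM in GFP-TC (SD, n = 3 each), a log2 fold change of -0.46 (SE 0.197, limma adjusted p = 0.33). Every ThTC library was below every GFP-TC library for Grin3b, the only member whose groups did not overlap, where 16.9% of all genes did not overlap with ThTC lower and 2.2% with ThTC higher. Chrna1 averaged 10.2 ± 3.13 TPM in ThTC and 15.7 ± 4.46 TPM in GFP-TC (SD, n = 3 each), a log2 fold change of -0.58 (SE 0.26, limma adjusted p = 0.34) that was -0.36 without ThTC 3. Within same-numbered libraries, 7 of the 38 tested members (18.4%) were lower in ThTC in all 3 pairs, where 32.6% of all genes were. They were Chrna1, Grik5, Grin3b, Grin2d, Gabre, Grik4 and Grm8. In TPM, 0 members were higher in ThTC in all 3 pairs, where 12% of all genes were. Under median-of-ratios scaling the same 7 members were lower in all 3 pairs, where 19.5% of all genes were. On that scale 1 member was higher in all 3 pairs, where 22% of all genes were. In the fit of these 6 libraries with replicate number as a block, limma gave an adjusted p = 0.18 for Chrna1, 0.22 for Grik5 and 0.27 for Grin3b.

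For the brain subunits with high means, the spread within each group was larger than the difference between ThTC and GFP-TC. Grin1 averaged 25.8 ± 29.2 TPM in ThTC and 26.9 ± 28.6 TPM in GFP-TC (SD, n = 3 each), with a log2 fold change of 0.12 and a SE of 1.07. Gria1 averaged 17.5 ± 19.7 TPM in ThTC and 16.2 ± 16.2 TPM in GFP-TC (SD, n = 3 each), with a log2 fold change of 0.23 and a SE of 0.99. In both cases the standard error was larger than the difference. The median log2 fold change was -0.05 over the 38 tested members and -0.10 over all genes. Higher in ThTC were 16 members and 4675 of all 13829 genes, and lower were 22 members and 9154 genes. Under median-of-ratios scaling, which shifts all genes, the median was 0.05 over the members and 0.02 over all genes, with 25 members higher. The balance rested on single libraries. Without ThTC 3 the median was -0.62 with 0 members higher, without GFP-TC 1 it was -0.53 with 0 higher, without GFP-TC 3 it was 0.56 with 30 higher, without ThTC 1 it was 0.44 with 28 higher and without ThTC 2 it was 0.18 with 28 higher. Without both ThTC 3 and GFP-TC 3 it was -0.15 with 7 higher.

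With the neuron score as a further term, limma called 0 members and 0% of genes between ThTC and GFP-TC. The smallest p was that of Chrna1, with a log2 fold change of -0.55 (SE 0.12, limma adjusted p = 0.14), followed by Grik5 at -0.51 (SE 0.13, limma adjusted p = 0.14) and Grin2d at -0.56 (SE 0.199, limma adjusted p = 0.16). The standard errors of these 3 were smaller than without the score, and the differences still missed the threshold.

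**Figure D5:**
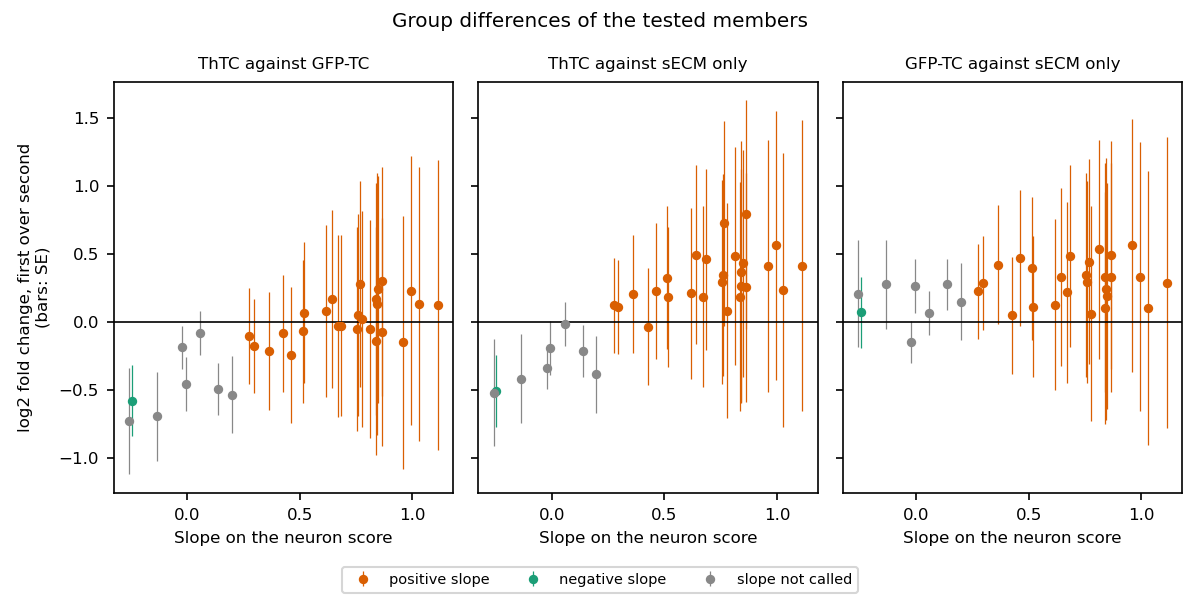
log2 fold change of 34 of the 38 tested members (vertical axis, first group over second, bars are SE) in the 3 comparisons, against the slope on the neuron score (horizontal axis). Members with steep slopes have bars of about 1 log2 unit that cross 0 in each comparison, and the members with slopes near or under 0 have short bars and lie at or below 0 in both comparisons of ThTC.

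The comparisons of ThTC and of GFP-TC with sECM only use the same sECM only libraries, and ThTC and GFP-TC each enter 2 comparisons, so the 3 sets of values are not independent. For ThTC against sECM only, limma called 0 members and 0% of all genes, and at an unadjusted p under 0.05 it gave 0 members and 6.9% of genes. Chrnb1 averaged 40.9 ± 9.51 TPM in ThTC and 51.0 ± 1.73 TPM in sECM only (SD, n = 3 each), a log2 fold change of -0.34 (SE 0.15, limma adjusted p = 0.69) that was -0.17 without ThTC 2. Chrna1 averaged 10.2 ± 3.13 TPM in ThTC and 14.6 ± 2.15 TPM in sECM only (SD, n = 3 each), a log2 fold change of -0.51 (SE 0.26, limma adjusted p = 0.69) that was -0.28 without ThTC 3. Chrnd was the only member without overlap, with every ThTC library below every sECM only library, at 0.61 ± 0.26 TPM in ThTC and 1.30 ± 0.29 TPM in sECM only (SD, n = 3 each). Among all genes 12.1% did not overlap with ThTC lower and 5.03% with ThTC higher. The median log2 fold change was 0.23 over the members and -0.03 over all genes. Higher in ThTC were 29 members and 6143 of all 13829 genes. Without ThTC 3 the median over the members was -0.37 with 1 higher.

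For GFP-TC against sECM only, limma called 0 members and 0% of all genes, with 0 members and 0.933% of genes at an unadjusted p under 0.05. Grik5 had the smallest p, at 132 ± 27.4 TPM in GFP-TC and 107 ± 9.63 TPM in sECM only (SD, n = 3 each), a log2 fold change of 0.28 (SE 0.19, limma adjusted p = 0.997) that was 0.45 without GFP-TC 1 and 0.15 without GFP-TC 2. No member was without overlap, where 3.15% of genes did not overlap with GFP-TC higher and 1.08% with GFP-TC lower. The median log2 fold change was 0.28 over the members and 0.08 over all genes. Higher in GFP-TC were 36 members and 9925 of all 13829 genes, so most genes leaned that way too. Without GFP-TC 3 the median over the members was -0.21 with 11 higher. No partner list had a called gene in any of the 3 comparisons.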

How the data were processed

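Sequencing was of total RNA on the DNBseq platform, per the labels' protocols. The authors deposited 9 files, 1 for each library, with TPM for every gene to 2 decimals. The submitters' processing notes name HISAT, GRCm38.p6 and mm10, with no version; the quantification tool, annotation, filters and use of strand are not given in the sources used here. Counting error cannot be worked out from TPM, and because TPM has a fixed total, genes that go up push the others down.

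Values were analysed as log2(TPM + 1), which understates the fold change of low genes. Of 18639 genes, the 13829 that reached 1 TPM in 3 or more libraries entered limma 3.58.1 under R 4.3.3 (lmFit and eBayes with trend, two-sided, Benjamini-Hochberg over all tested genes, threshold 0.05), with the 9 libraries of the 3 groups in one fit. In the slope model the 10 neuron markers were left out of the tested genes. Alternatives were 2 other pseudocounts, 2 other filters, median-of-ratios scaling, no trend, only the groups compared, replicate number as a block, the neuron score as covariate, each library left out, and ThTC 3 and GFP-TC 3 left out together. The steps were tested on simulated data, with noise drawn independently for each gene and library. Variation shared by many genes, as with the neuron score, was not part of that noise. Over all 36 pairs of libraries, at most 0.42% of tested genes had an identical TPM to the 2 decimals given.

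The members, marker and partner lists were chosen with earlier results of these data known. Genes named were the 2 highest of each family, the 3 smallest p of each comparison and the 5 highest and 5 lowest slopes. Some members that the rule or the filter took are not reported here by name, and counts include them. Gria3, Gabra3, Gabra5, Grm6, Chrna4, Chrnb2, Grin2a, Grin2b, Chrng, Chrne and the list genes were named after their values were seen. The same holds for Grik4, Grm8, Chrna7, Gabrg1 and Glra1.

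Same-numbered ThTC and GFP-TC libraries had deviations from the group means with correlations of 0.74 (number 1), 0.12 (number 2) and 0.87 (number 3). Each exceeds 0.1, and these libraries were treated as pairs, although no label explains the numbers and ThTC 2 correlated more with GFP-TC 1 (0.38) than with GFP-TC 2. Same-numbered sECM only libraries correlated at -0.55, 0.28 and -0.21 with ThTC and at -0.53, -0.14 and -0.19 with GFP-TC and were not.

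Positions and the 250 bases before each start came from RefSeq tables of GRCm38.p6, in which all 66 members had a position and 46 a window; exon overlaps came from a GENCODE annotation of the same build. Tables and plots were made with Python 3.11.15, pandas 2.3.3 and matplotlib 3.10.9.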

Additional observations from a re-analysis of the deposited data

How the results depend on the processing

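In the 3 comparisons, 0 members were called under every alternative run, including the fit with replicate number as a block in 6 libraries, in which 8 genes in all were called between ThTC and GFP-TC; pairing changed no call of a member between groups. Of the slopes on the neuron score, 31 of 38 tested members had a call, beside 25.4% of all genes called positive and 4.18% negative. The members called were 28 with the replicate block over 9 libraries (12.5% and 0.224% of all genes), 11 of 15 with a mean TPM of 5 or more (20.3% and 4.59%), 15 without ThTC 3 and GFP-TC 3 together (9.02% and 0.188%), and 27 to 34 with each library left out (17.7% to 26.8% and 1.45% to 4.94%). The stricter mean leaves fewer members to test and the other setting fewer libraries. Slopes that changed sign were not called in either setting. Grik2 was at -0.021 with the block and -0.082 without ThTC 3 and GFP-TC 3, and in the last setting Grin3b was at 0.16, Gabre at 0.28 and Chrnd at 0.026. With each library left out, Chrnb1 lay between -0.071 and 0.055 and Grin3b between -0.058 and 0.035. The median log2 fold change of the members in ThTC against GFP-TC became 0.0094 with no filter, and in ThTC against sECM only -0.014 with the neuron score as covariate. The depth behind each TPM is unknown, so members listed near 0 cannot be told from absent ones. With 3 libraries per group and standard errors near 1 log2 unit for the brain subunits, group differences of these genes could be seen only if large.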

Other observations

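Scaled to the 10 neuron markers, the tested members with a called positive slope varied less over the libraries than in TPM, except Gria4. These markers also make up the score by which those members were picked, and their sum varied 9.94-fold over the libraries. Narrower ranges for those members and wider ones for the others were therefore largely fixed in advance. Gria4 varied 5.23-fold on this scale, against 2.42-fold in TPM, and the other members differed in how much they varied. Grin1 was at 3.86% of the summed marker TPM in ThTC 3, 4.51% in GFP-TC 3 and 1.57% in GFP-TC 1, a 2.88-fold range where its TPM varied 24.5-fold. Gria2 was at 0.828% to 1.84% and varied 2.22-fold on this scale. Gabrd varied 32.9-fold, at 0.0314% in ThTC 1 and 1.03% in ThTC 3, and Gabra5 8.70-fold, at 2.73% in ThTC 1 and 0.314% in ThTC 2. The Gabrd range rests on a value of 0.06 TPM in ThTC 1, and its next lowest share was 0.22% in GFP-TC 1. Grik5 and Chrnb1 varied more on this scale than in TPM, 8.74-fold and 10.6-fold. The other tested members without a called positive slope also varied more on this scale, among them Grin2d (7.10-fold) and Grik2 (8.88-fold).

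Of the 28 members below the filter, 10 had a positive slope on the neuron score when every gene was tested. Over all genes in that fit, 22.2% had a positive and 2.90% a negative slope. The 10 include the gene for a receptor-binding protein, which is not a subunit, and Grin2a at 0.53 and Gabrg1 at 0.38. Grin2a codes for the GluN2A subunit of the adult forebrain and Gabrg1 for a gamma subunit. The other 18, among them Chrng and Glra1, were not called.

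Grin1 averaged 25.8 ± 29.2 TPM in ThTC, 26.9 ± 28.6 TPM in GFP-TC and 12.8 ± 4.97 TPM in sECM only (SD, n = 3 each). Its libraries lay closest together in sECM only, and the difference in spread was not tested.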
